A study of Mus musculus with 4 samples.

Results

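The genes described here are 10 transcription factors of haematopoietic stem and progenitor cells, Mecom, Meis1, Hoxa9, Lyl1, Tal1, Lmo2, Etv6, Myb, Myc and Gata2, of 21506 genes in the deposited tables. They were taken by gene name, and for each gene the transcript row with the longest exon length was used. The study measured poly(A)-enriched RNA by Illumina sequencing in 32Dclone3, a mouse myeloid cell line kept in medium with serum and, as its source of interleukin-3, medium conditioned by WEHI cells. The control group was 2 libraries of cells stably infected with XZ (the empty vector), and the other group was 2 libraries of cells stably infected with XZ-miR-125b, so that all 4 libraries carried the vector. A different virus supernatant was used for each of the infections within a condition. The comparison asked how gene levels differed between the vector and the miR-125b cells of this 1 cell line.

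These factors hold a blood progenitor in its state. MECOM (also called EVI1) is a zinc finger protein that keeps stem cells dividing without maturing and is known as an oncogene of myeloid leukaemia. HOXA9 and its partner MEIS1 bind DNA together, TAL1 or LYL1 joins LMO2 and GATA2 in a complex on enhancers, ETV6 is an ETS repressor needed by adult stem cells, and MYB and MYC drive the growth and division of progenitors. miR-125b is a microRNA of stem and progenitor cells that lowers the level of RNAs whose 3′ UTR pairs with its seed.

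The sequence of mature miR-125b is shown because it sets which members could pair with it, with the seed (bases 2 to 8) in capitals, as RefSeq gives it in GRCm38.p6 (chr9:41581940-41581961, plus strand):
mmu-miR-125b-5p: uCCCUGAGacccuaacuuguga
The matching DNA letters in a 3′ UTR are CTCAGGG (a 7mer-m8 site), CTCAGGGA (an 8mer), TCAGGGA (a 7mer-A1 site) or TCAGGG (a 6mer), searched on the sense strand of the longest annotated 3′ UTR in GENCODE M21, each site counted once under its longest match. Etv6 was the member with a 7mer-m8 site, 1 match at base 3600 of a 3′ UTR of 3684 bases, and it held a 6mer besides. Myb held a 7mer-A1 site at base 1103 of 1238 and a 6mer. These sites are printed with the matched letters in capitals:
Etv6 7mer-m8 site: aaatgccttttCTCAGGGccagtgagtt
Myb 7mer-A1 site: ggttcctgggctTCAGGGAagacaaata
Meis1 and Tal1 held 2 6mers each and Gata2 held 1, while the 3′ UTRs used for Mecom, Hoxa9, Lyl1, Lmo2 and Myc held none of the 4 kinds of match. Among 9961 tested genes with a 3′ UTR, 17.1% had an 8mer or a 7mer-m8 site and 61.1% had none of the 4. A match is a description of the sequence and not a measured site.

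Reads of Mecom lay in the row of the gene's downstream start in every library and none in the row of its upstream exons, so the windows around both of its RefSeq starts are shown, 250 bases before to 50 after each start, on the minus strand of chromosome 3 in GRCm38.p6. The upstream window (chr3:30509710-30510009) belongs to the start of the long MDS1 and EVI1 form, and the downstream window (chr3:30013155-30013454) lies at the start of the EVI1 form. GENCODE places the start of the transcript matched to the EVI1 row at base 30013156. Capitals mark a match to TGACAG, the core motif of MEIS proteins, on the opposite strand; the upstream window held no match:
Mecom upstream start: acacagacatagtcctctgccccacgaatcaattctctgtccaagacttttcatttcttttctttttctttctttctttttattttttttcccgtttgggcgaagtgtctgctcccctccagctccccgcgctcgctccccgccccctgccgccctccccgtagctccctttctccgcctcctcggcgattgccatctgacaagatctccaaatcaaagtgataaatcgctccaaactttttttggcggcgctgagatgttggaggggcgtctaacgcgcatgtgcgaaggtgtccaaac
Mecom downstream start: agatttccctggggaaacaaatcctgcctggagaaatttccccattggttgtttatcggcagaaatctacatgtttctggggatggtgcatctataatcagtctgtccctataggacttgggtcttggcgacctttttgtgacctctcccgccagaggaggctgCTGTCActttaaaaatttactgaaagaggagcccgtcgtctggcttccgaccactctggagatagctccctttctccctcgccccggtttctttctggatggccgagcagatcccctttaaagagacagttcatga
The upstream window had 19 CpG dinucleotides and the downstream window 9, against a median of 7 over 32851 promoters of the same length. TGACAG on either strand was found in 19.2% of those promoters. RefSeq windows were matched for 8 of the 10 members. The other motifs searched on both strands were CACGTG (found in 7.15% of all promoters), CAGCTG (16.3%), AGATAA (11.2%) and CCGGAAGT (3.89%), none of which contains another. Among the members, CAGCTG was found in 1 window of Gata2, AGATAA in 1 window of Tal1 and CCGGAAGT in the window of Meis1. CACGTG was found in none of the windows of the matched members.

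Values are RPKM, reads per kilobase of exon and M reads, and 1 gene can be compared with another on this scale. Summed over all rows, where reads shared by several rows of a gene count more than once, the libraries held 10.4 to 12.6 M reads. With 1 row per gene they held 7.73 to 9.48 M, and the tested members had between 124 and 14456 reads in a library. Control replicate 2 stood apart: its difference from control replicate 1 was greater for transcripts of higher GC content (Spearman rho = 0.474 across 10278 genes, which are not independent), against 0.0516 between the miR-125b libraries. Its part in the results was not tested beyond the values without it given below. Reads of the Mir125b-1 hairpin row numbered 0 and 0 in control and 4 and 4 with miR-125b, and poly(A) libraries do not capture the mature miRNA. Neutrophil granule genes summed to between 1730 and 2175 RPKM in control and between 1132 and 1624 with miR-125b, with 5 of 12 tested markers lower and 1 higher at an unadjusted limma p under 0.05, and Mmp8 at 0. The lower markers were S100a8, S100a9, Ltf, Ngp and Cebpe, and the higher was Mpo. S100a8, a calcium-binding protein of maturing neutrophils, had 144.3 and 127.6 RPKM in control and 10.9 and 0.870 with miR-125b. Mast cell and basophil genes summed to 148 to 248 RPKM against 51.5 to 80.2, with 3 of 6 tested markers lower (Gzmb, Cpa3 and Il4) and 2 higher (Ms4a2 and Prss34), and Fcer1a and Tpsb2 at 0. Most of the control sum was 1 gene, Gzmb, at 206.5 and 109.2 RPKM in control and 38.8 and 23.5 with miR-125b. Lymphoid genes summed to 1.73 and 1.53 RPKM in control and 1.68 and 4.86 with miR-125b, with 0 of 1 tested markers at that level of p, and Pax5, Ebf1, Rag1 and Il7r were at 0 in all 4 libraries. The tested one, Cd79b, had 1.04 and 1.21 RPKM in control and 1.39 and 4.62 with miR-125b. Monocyte and macrophage genes summed to 219 to 252 RPKM in control and 181 to 199.98 with miR-125b, with 1 of 5 tested markers lower (Lyz2) and 1 higher (Cd68) and Ccr2 and Ly86 at 0. Stromal genes summed to 173 to 226 RPKM against 212 to 301, with 1 of 3 tested markers higher (Thy1). Col1a2, Col3a1 and Dcn were at 0. Most of that sum was Pecam1, at 220.7 and 163.1 RPKM in control and 290.3 and 206.6 with miR-125b, and its groups overlapped. Thy1 had 0.257 and 0.722 RPKM in control and 1.19 and 2.31 with miR-125b. The median log2 difference of the neutrophil list was -0.14. That median ranged from -0.45 to 0.38 over the libraries left out, and was 0.38 without control replicate 2. The part of these marker shifts in the members' values was not tested.

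Of the 10 members, 9 were present at more than 1 RPKM in all 4 libraries and were tested, and Hoxa9 had no read. Etv6 (0.61 times the control mean), Lyl1 (0.69 times) and Myc (0.82 times) were lower in both miR-125b libraries than in both control libraries, and Mecom (1.47 times) was higher in both. Meis1, Tal1, Lmo2, Myb and Gata2 overlapped between the groups. None of the 9 passed an adjusted p of 0.05 (limma on log2(RPKM + 1), Benjamini-Hochberg over 10309 genes), with adjusted p between 0.464 and 0.897. No other gene passed either: the share called was 0% of all tested genes, and limma-voom on the reads also called 0. Left-out libraries changed the count over all genes to 1 (control replicate 2), 91 (miR-125b replicate 1) or 25 (miR-125b replicate 2), none of them a member. At an unadjusted limma p under 0.05, 2 of 9 members were lower (5.2% of all tested genes were) and 0 were higher (4.17% of all). The groups did not overlap for 3 members that were lower (20.4% of all tested genes) and 1 that was higher (22.3% of all). The median difference of the 9 was -0.21 on the log2 scale, and that of all tested genes was 0.024. Over the libraries left out, the difference of Etv6 ranged from -0.84 to -0.49 and that of Lyl1 from -0.70 to -0.32. Myc ranged from -0.30 to -0.25 and Mecom from 0.30 to 0.77. Lmo2, Gata2, Tal1 and Meis1 took both signs. In bulk RNA, fewer cells with a transcript and less of it per cell cannot be told apart.

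**Figure D1:**
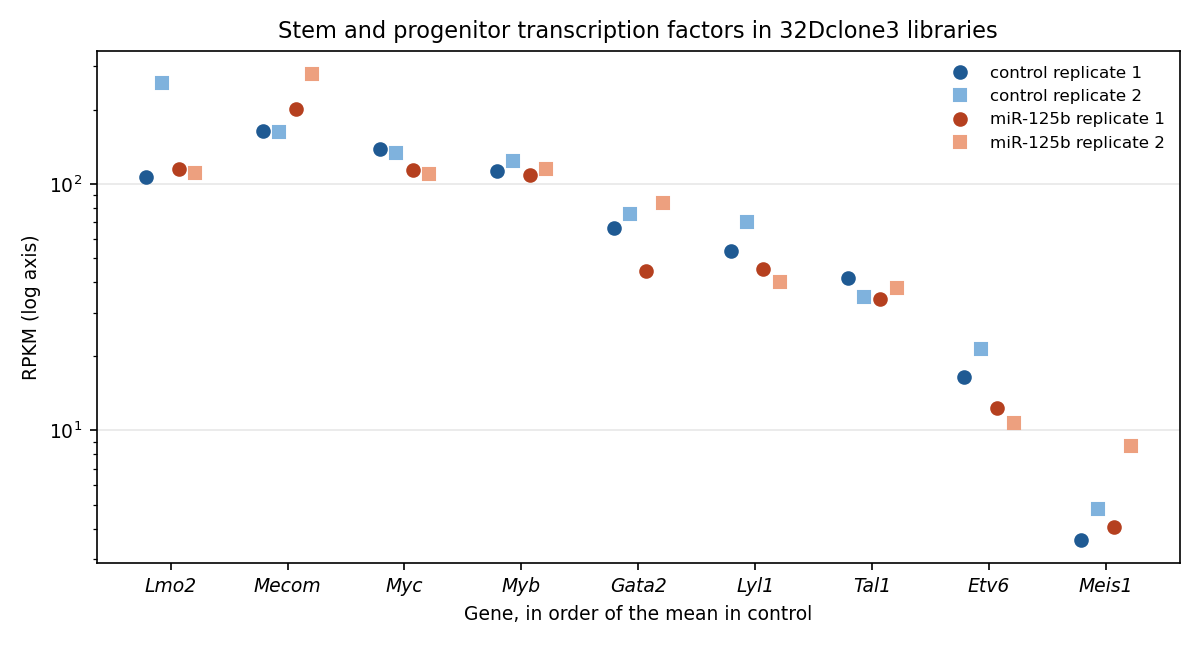
RPKM (log axis) of the 9 members with reads in each of the 4 libraries; circles and squares are replicates 1 and 2, blue control and red miR-125b. Mecom was higher and Etv6, Lyl1 and Myc were lower in both miR-125b libraries, control replicate 2 stands alone for Lmo2 at 256.3 RPKM, and Hoxa9, at 0, is not drawn.

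Mecom, Lmo2, Myc and Myb had the highest levels. In control the means ran from Lmo2 (181.3 RPKM) and Mecom (163.0) through Myc (135.6), Myb (118.3), Gata2 (70.9), Lyl1 (61.7), Tal1 (38.2) and Etv6 (18.9) to Meis1 (4.202). The first place of Lmo2 rested on control replicate 2: in control replicate 1 it had 106.4 RPKM, below Mecom (163.1), Myc (138.2) and Myb (112.3). Neighbours whose libraries overlapped were Lmo2 with Mecom and Gata2 with Lyl1. With miR-125b, Mecom was first (239.9 RPKM), its libraries clear of those of Lmo2 (112.3), and the overlapping neighbours were Lmo2 with Myc, Myc with Myb, and Gata2 with Lyl1. Myc had a mean of 111.8 RPKM there and Myb 111.7. The lower end, Lyl1 (42.6), Tal1 (36.0), Etv6 (11.5) and Meis1 (6.36), kept the order it had in control.

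Mecom was among the most abundant messages of these cells and was higher still in both miR-125b libraries. The EVI1 row (chromosome 3, bases 29850226 to 29912126 in mm9, minus strand, 15 exons, 4421 bases) had 163.1 and 162.9 RPKM in control replicates 1 and 2 and 201.2 and 278.7 in miR-125b replicates 1 and 2. The control libraries were alike and both miR-125b libraries lay above them, with replicate 2 the higher. Mecom thereby ranked 227 of all genes in each control library, and 151 and 95 with miR-125b. The means were 163.0 ± 0.185 and 239.9 ± 54.8 RPKM (SD, n = 2 each), a difference of 0.54 ± 0.23 (SE) on the log2 scale with a 95% interval of -0.013 to 1.09. The unadjusted limma p was 0.0544 and the adjusted p 0.534, which did not pass. Without miR-125b replicate 2 the difference was 0.30, and without miR-125b replicate 1 it was 0.77. The Mecom transcript has a GC content of 45.1%, below the lower quartile of 45.6% of tested genes. Removing the GC trend of each library gave a difference of 0.47.

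A second Mecom row, for the MDS1 exons that lie upstream (bases 30135491 to 30408409 in mm9, 3 exons, 1075 bases), had 0 reads in all 4 libraries, where 3 reads would have been 0.221 to 0.269 RPKM. Per length, the EVI1 row was at least 656-fold and 606-fold higher than the upstream row in control replicates 1 and 2, taking 3 reads per library as the floor. In miR-125b replicates 1 and 2 it was at least 910-fold and 1172-fold higher. Transcription read over the upstream exons was thus not detectable at this depth in either group, while the EVI1 row had 7472 to 14456 reads. Of 14 other genes within 1 Mb of the rows, 6 had no read in any library and 6 reached 1 RPKM in at least 2 libraries. The highest neighbour was Sec62, a part of the protein import machinery of the endoplasmic reticulum, with 29.3 and 26.6 RPKM in control and 33.7 and 36.3 with miR-125b. Skil, which encodes a SMAD co-repressor, had 5.91 and 4.13 RPKM in control and 4.84 and 5.48 with miR-125b. Sec62 and Skil were named after their values were seen.

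**Figure D2:**
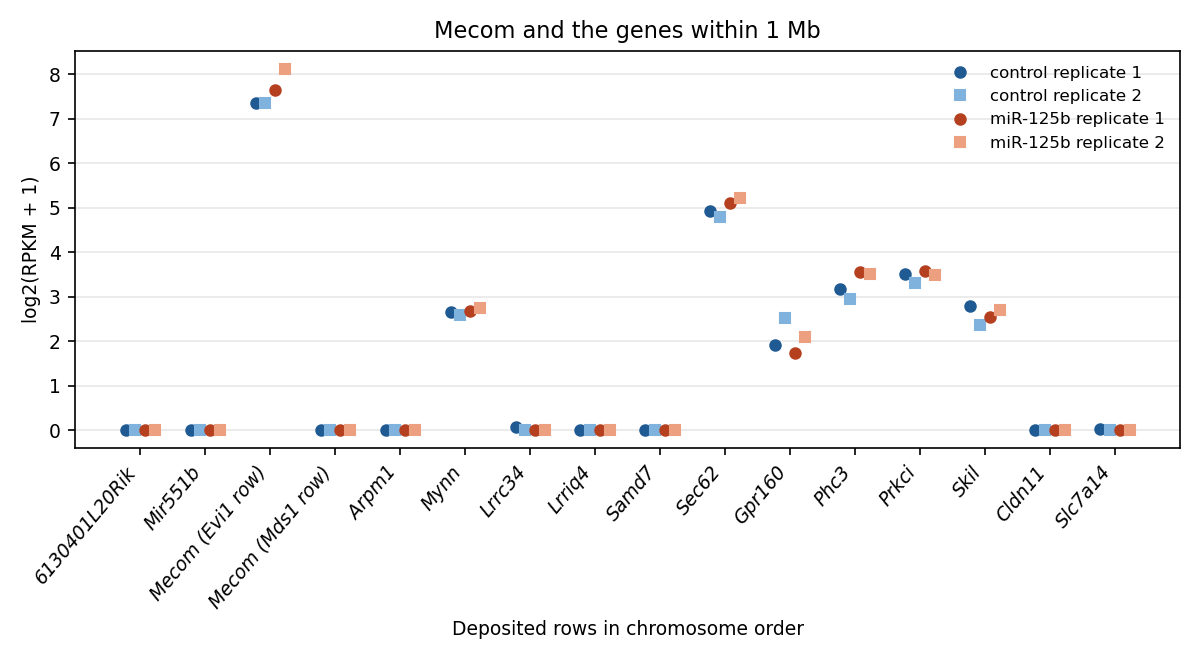
Level, log2(RPKM + 1), of the 2 Mecom rows and the 14 other genes within 1 Mb, in chromosome order, with 1 point per library. The EVI1 row of Mecom stands above every neighbour in all 4 libraries, and the adjacent MDS1 row lies at 0.

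Among relatives and co-repressors of MECOM, 0 of 7 tested genes had an unadjusted limma p under 0.05 in either direction, and their median difference was -0.26 (0.024 over all tested genes). The control and miR-125b libraries did not overlap for 4 lower genes (20.4% of all tested genes) and 1 higher gene (22.3% of all). Ctbp1, a co-repressor that binds EVI1, had 42.5 and 62.5 RPKM in control and 35.1 and 37.2 with miR-125b (log2 difference -0.50, limma adjusted p = 0.552). Its relative Ctbp2 had 4.25 and 4.81 RPKM against 3.50 and 3.29. Both co-repressors were lower in both miR-125b libraries. The Ctbp1 difference was -0.23 without control replicate 2 and -0.78 without control replicate 1. Prdm4, a zinc finger factor, had 15.2 and 11.2 RPKM against 19.6 and 17.1 and was higher in both. Prdm16, the closest relative of Mecom, had 1 read in 1 library and none in the others, and it was named after its value was seen.

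Of the homeobox pair, Meis1 was low and Hoxa9 was not detected. Meis1 (chromosome 11, bases 18780431 to 18918683 in mm9, 12 exons) had 3.61 and 4.79 RPKM in control and 4.07 and 8.64 with miR-125b. The value of 8.64 in miR-125b replicate 2 stood 2.12 times above the other library of its group, and the remaining 3 libraries overlapped. Of all tested genes, 1.69% differed as far between the miR-125b libraries on the log2 scale. The means were 4.202 ± 0.834 and 6.36 ± 3.23 RPKM (SD, n = 2 each), with a log2 difference of 0.44 ± 0.32 (SE; limma adjusted p = 0.677). Without miR-125b replicate 2 the difference was -0.028, so its sign rested on that library.

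Hoxa9 (chromosome 6, bases 52174053 to 52177369 in mm9, 2 exons, 2272 bases) had 0 reads in each library, and 3 reads would have been 0.105 to 0.127 RPKM. Of 39 Hox genes, 24 had no read in any library and the others at most 7 reads in a library, and none was tested. Pbx2 and Pknox1, homeobox genes of the TALE class like Meis1, were present. Pbx2 had 22.1 and 21.2 RPKM in control and 18.3 and 16.4 with miR-125b, and its groups did not overlap (log2 difference -0.31, limma adjusted p = 0.610). Pknox1 had 8.75 and 5.94 RPKM against 7.82 and 9.06. Its groups overlapped, with control replicate 2 lowest. Of the 27 listed HOX and TALE homeobox genes, 6 were tested, and 1 of them, Hhex, was lower at an unadjusted p under 0.05, with none higher (median -0.11). Hhex, a homeobox factor of early blood progenitors, had 48.9 and 62.3 RPKM in control and 36.4 and 37.3 with miR-125b. Both miR-125b libraries lay below both controls (log2 difference -0.57, limma adjusted p = 0.497), and Hhex did not pass over all genes.

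In the TAL1 complex, LYL1, the close relative of TAL1, was the member lower in both miR-125b libraries. Lyl1 (chromosome 8, bases 87225356 to 87228615 in mm9, 4 exons, 1801 bases) had 53.6 and 69.8 RPKM in control and 45.3 and 40.0 with miR-125b. The groups did not overlap, and control replicate 2 was the highest. The means were 61.7 ± 11.5 and 42.6 ± 3.77 RPKM (SD, n = 2 each), a log2 difference of -0.51 ± 0.21 (SE) with a 95% interval of -1.02 to -0.0038. The unadjusted limma p was 0.0487 and the adjusted p 0.527. The Lyl1 transcript has a GC content of 62.6%, above the upper quartile of 55.1% of tested genes. With the GC trend of each library removed, the difference was -0.32 (limma adjusted p = 0.528), and without control replicate 2 it was -0.32 as well (limma adjusted p = 0.508). In neither case was the unadjusted p under 0.05.

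Tal1 (chromosome 4, bases 114732132 to 114744360 in mm9, 4 exons) had 41.5 and 34.8 RPKM in control and 34.1 and 37.8 with miR-125b. The libraries of both groups were interleaved. Its difference was -0.080 ± 0.19 (SE) on the log2 scale, with a 95% interval of -0.54 to 0.38 (limma adjusted p = 0.897). Tal1 and Lyl1 encode related basic helix-loop-helix proteins with the same partners, and whether their differences differ from each other was not tested.

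Lmo2, the bridging LIM protein of the complex, was at one level in 3 libraries and far higher in the fourth. Its longest row (chromosome 2, bases 103810444 to 103822034 in mm9, 3 exons, 1645 bases) had 106.4 and 256.3 RPKM in control and 114.4 and 110.2 with miR-125b. Control replicate 2 was 2.41 times control replicate 1, and both miR-125b libraries lay between them. Of all tested genes, 1.29% differed as far between the control libraries on the log2 scale. The means were 181.3 ± 105.9 and 112.3 ± 3.01 RPKM (SD, n = 2 each), a log2 difference of -0.55 ± 0.39 (SE; limma adjusted p = 0.668). Without control replicate 2 the difference was 0.077, and without control replicate 1 it was -1.18, so the sign rested on control replicate 2.

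The tables hold 4 Lmo2 rows that share their last exons and differ at the start. One begins with an 89-base exon at bases 103798152 to 103798240, far upstream, and one with a 79-base exon at bases 103810444 to 103810522, next to the shared exons. The row with the 79-base exon had 20 and 161 reads more than the row with the 89-base exon in control replicates 1 and 2, and 20 and 18 more with miR-125b. Control replicate 2 thus stood apart in the first exon too: the surplus was 37.5 per 1000 reads of the row there, 10.3 in control replicate 1, and 8.51 and 8.56 with miR-125b. For the row with a 165-base first exon in between, the surplus was 10.8 and 14.6 per 1000 reads in control and 4.70 and 9.97 with miR-125b. The row with the 426-base first exon, which spans the 79-base exon and the next, had a surplus of 24.9 and 56.5 against 19.4 and 19.7. These are differences between rows, not counts of each exon, and the part of GC content in them was not tested.

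**Figure D3:**
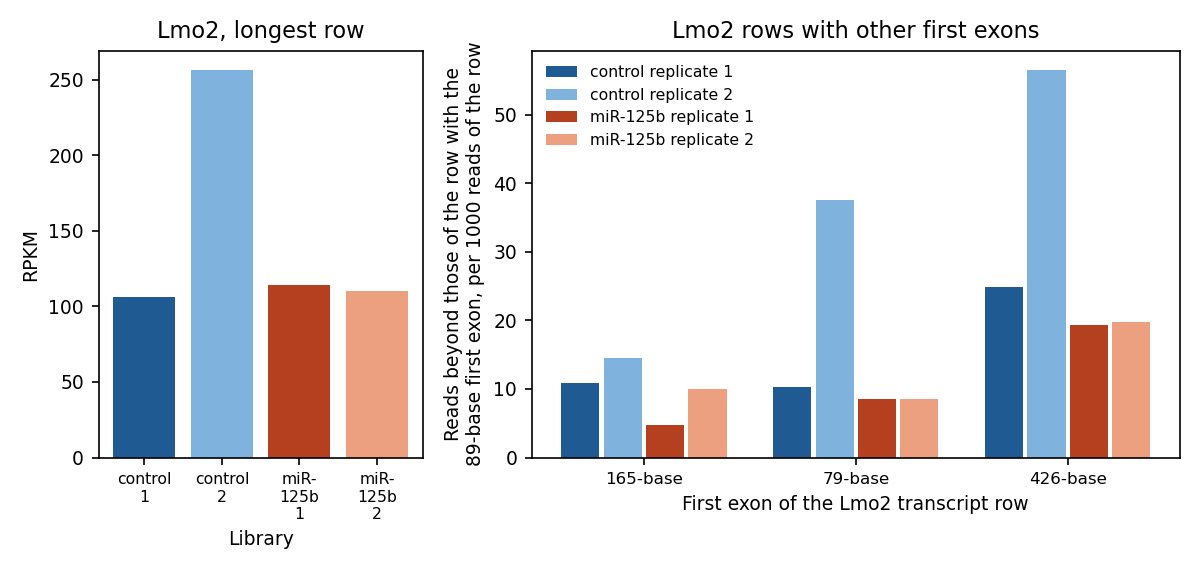
Left, RPKM of the longest Lmo2 row in each library; right, reads of the 3 rows with a 165-base, 79-base or 426-base first exon beyond those of the row with the 89-base first exon, per 1000 reads of the row. Control replicate 2 (light blue) is highest in both panels, with 37.5 per 1000 for the 79-base exon against 8.51 to 10.3 in the other 3 libraries.

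Gata2, the zinc finger factor of stem cells, mast cells and early megakaryocytes, was with Meis1 among the members that differed most between the miR-125b cultures. Gata2 (chromosome 6, bases 88148658 to 88157024 in mm9, 6 exons) had 66.4 and 75.4 RPKM in control and 44.4 and 84.0 with miR-125b. One miR-125b library lay below and the other above both controls. Their ratio was 1.89, and 1.81% of all tested genes differed as far between the miR-125b libraries on the log2 scale. The means were 70.9 ± 6.38 and 64.2 ± 28.0 RPKM (SD, n = 2 each), a log2 difference of -0.21 ± 0.31 (SE; limma adjusted p = 0.827). Without miR-125b replicate 1 it was 0.24 and without miR-125b replicate 2 it was -0.66.

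Gata1, which follows GATA2 in the red cell and megakaryocyte lineages, had 16.1 and 20.7 RPKM in control and 6.36 and 15.1 with miR-125b. It was also lowest in miR-125b replicate 1, and both miR-125b libraries lay below both controls (log2 difference -0.82, limma adjusted p = 0.536). Without miR-125b replicate 1 the difference of Gata1 was -0.26, and without miR-125b replicate 2 it was -1.39. The GATA cofactor Zfpm1 had 36.7 and 59.6 RPKM against 21.2 and 44.3, and Gfi1b, a repressor of the same lineages, had 23.5 and 25.03 against 16.7 and 29.8. Both were lowest in miR-125b replicate 1, and both were named after their values were seen. Megakaryocyte genes summed to 391 and 611 RPKM in control and to 315 and 464 with miR-125b, with 1 of 8 tested markers lower (Itgb3) and 1 higher at an unadjusted p under 0.05 and Gp1bb at 0. Erythroid genes summed to between 11.5 and 14.6 RPKM in control and between 9.37 and 13.1 with miR-125b, with 1 of 3 tested markers lower, 0 higher, and Hbb-b1, Slc4a1 and Tspo2 at 0. Their part in the level of Gata2 was not tested.

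Of 21 listed partners and inhibitors of the TAL1 complex, 17 were tested and 0 had an unadjusted limma p under 0.05 in either direction, with a median of -0.17. The groups did not overlap for 7 lower genes (20.4% of all tested genes) and 4 higher genes (22.3% of all). Cbfa2t3 (ETO2), a co-repressor carried by the complex, had 52.6 and 73.6 RPKM in control and 42.8 and 45.7 with miR-125b (log2 difference -0.48, limma adjusted p = 0.548). Ssbp4, which binds the LDB1 adaptor, had 47.4 and 51.8 RPKM against 37.0 and 39.4. Both were lower in both miR-125b libraries. The Cbfa2t3 difference was -0.25 without control replicate 2, -0.72 without control replicate 1 and -0.34 with the GC trend removed. Lmo1 and Id4 had no read in any library.

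Etv6 was the member with the smallest p and the one with a 7mer-m8 match in its 3′ UTR. Any part of that match in its level was not tested. Lyl1 and Myc, also lower in both miR-125b libraries, held no match in the 3′ UTRs used. Etv6 (chromosome 6, bases 133985725 to 134220165 in mm9, 8 exons, 5530 bases) had 16.5 and 21.3 RPKM in control and 12.4 and 10.7 with miR-125b. Every control library lay above both miR-125b libraries, by 1.34 to 2.00 times over the 4 pairings. The means were 18.9 ± 3.41 and 11.5 ± 1.18 RPKM (SD, n = 2 each), a log2 difference of -0.66 ± 0.20 (SE) with a 95% interval of -1.15 to -0.18. The unadjusted limma p was 0.0146, and the adjusted p of 0.464 did not pass. With each library left out in turn the difference ranged from -0.84 to -0.49. With the GC trend removed it was -0.68.

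Of 16 other ETS family genes, 14 were tested, 1 was lower at an unadjusted limma p under 0.05 and none was higher, with a median of -0.0068. Etv3, another ETS repressor, was that gene, with 17.8 and 22.6 RPKM in control and 13.6 and 13.7 with miR-125b (log2 difference -0.52, limma adjusted p = 0.505). Elf1, an activator of blood genes, had 31.7 and 28.8 RPKM against 23.7 and 21.5. Both lay lower in both miR-125b libraries, and neither passed over all genes. Sfpi1 (PU.1), the master factor of myeloid cells, had 82.6 and 127.2 RPKM in control and 80.3 and 69.6 with miR-125b. Its groups did not overlap, with control replicate 1 close to miR-125b replicate 1 and control replicate 2 far above.

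Myb had nearly the same level throughout. Myb (chromosome 10, bases 20844736 to 20880790 in mm9, 15 exons) had 112.3 and 124.3 RPKM in control and 108.3 and 115.0 with miR-125b. The groups overlapped. Its difference was -0.081 ± 0.19 (SE) on the log2 scale with a 95% interval of -0.54 to 0.38 (limma adjusted p = 0.894). Its 7 listed relatives and co-activators, all tested, included 0 at an unadjusted p under 0.05 in either direction, with a median of -0.095. Mybl1 had 3.60 and 2.08 RPKM in control and 3.54 and 3.93 with miR-125b, and Mybl2, a cell cycle factor, had 27.4 and 16.7 against 25.7 and 25.02. In both, control replicate 2 was lowest and the other 3 libraries were close together.

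Myc was lower with miR-125b by little, with close replicates. Myc (chromosome 15, bases 61816896 to 61821916 in mm9, 3 exons) had 138.2 and 132.9 RPKM in control and 113.6 and 110.0 with miR-125b. The groups did not overlap, and each pair of replicates was closer than the gap between the groups. The means were 135.6 ± 3.76 and 111.8 ± 2.55 RPKM (SD, n = 2 each), a log2 difference of -0.28 ± 0.19 (SE) with a 95% interval of -0.72 to 0.17. It did not pass (limma adjusted p = 0.651), the fit taking part of its spread from genes of like level. Leaving out each library in turn gave -0.30 to -0.25.

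**Figure D4:**
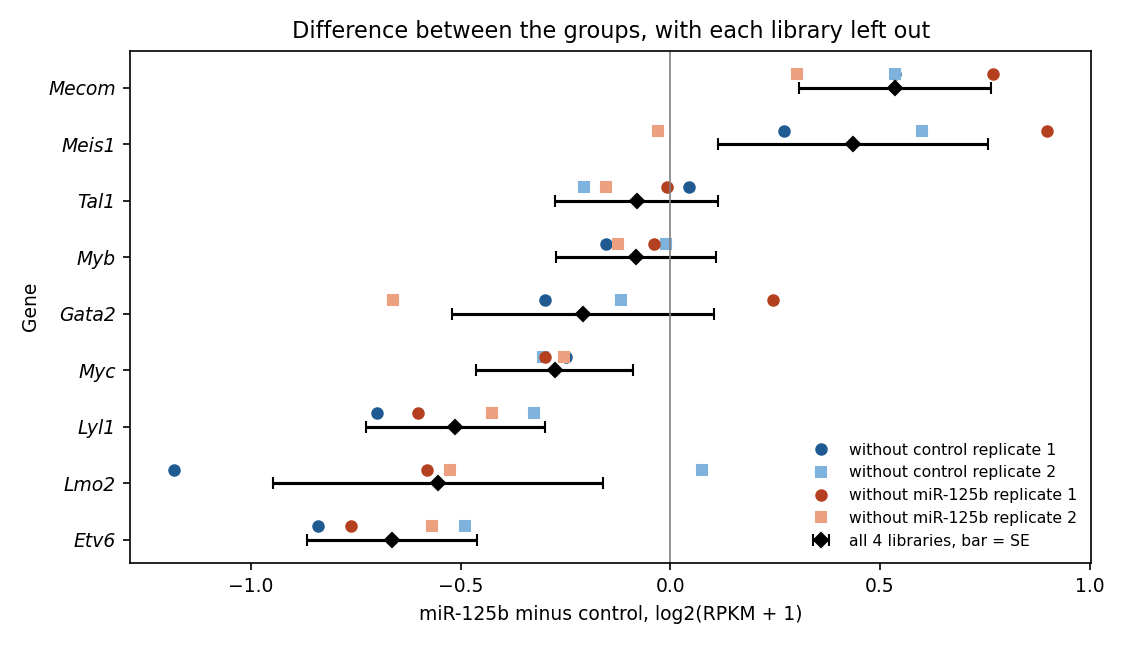
Difference in log2(RPKM + 1), miR-125b minus control, for the 9 tested members (black diamonds, bars are the SE of limma) and the same with each library left out (coloured points). Etv6, Lyl1, Myc and Mecom keep their side of 0 in every case, while Lmo2, Gata2, Tal1 and Meis1 cross it when 1 library is left out.

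Known targets of MYC in ribosome assembly and growth had summed levels with miR-125b that lay between those of the control libraries. Of 30 listed targets, 29 were tested, 1 was lower at an unadjusted limma p under 0.05 and 0 were higher, with a median of 0.081. Rrs1, a ribosome assembly factor, was the lower gene, with 38.1 and 32.9 RPKM in control and 26.6 and 23.3 with miR-125b (log2 difference -0.49, limma adjusted p = 0.509). Shmt1, of one-carbon metabolism, had 31.5 and 21.8 RPKM against 33.6 and 34.6, and Ppan, another assembly factor, 84.6 and 72.4 against 68.8 and 56.9. Shmt1 was higher and Ppan lower in both miR-125b libraries. The targets summed to 3128 and 2045 RPKM in control and to 2847 and 2636 with miR-125b, so control replicate 2 was the lowest library and the miR-125b libraries lay between the controls. Without control replicate 2 the median was -0.23, and without control replicate 1 it was 0.37.

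The list of MYC network genes, not all of them partners of MYC itself, also had 0 of 15 tested genes at an unadjusted limma p under 0.05. This held in either direction, and the median was 0.0012. Mlxip had 14.1 and 14.4 RPKM in control and 11.9 and 10.7 with miR-125b. Fbxw7, whose product marks MYC for breakdown, had 12.2 and 8.80 RPKM against 13.3 and 14.0. Mlxip was lower and Fbxw7 higher in both miR-125b libraries (limma adjusted p = 0.606 for each). Ruvbl2, a helicase that joins MYC on chromatin, had 109.0 and 87.0 RPKM against 122.0 and 121.4 and was higher in both.

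Other regulators of the stem and progenitor state were partly absent from this line. Of 26 listed, 12 were tested, with 0 lower and 1 higher at an unadjusted limma p under 0.05 and a median of -0.12. Msi2, an RNA-binding protein of stem cells, had 8.30 and 9.52 RPKM in control and 10.5 and 13.3 with miR-125b, higher in both libraries but not at that level of p. Gfi1, a repressor of granulocyte precursors, had 16.9 and 28.9 RPKM against 19.6 and 9.64 and overlapped. Hlf, Flt3, Sox4, Lin28b and Hmga2 had no read in any library. Kit, the stem cell factor receptor, had 1 read in 1 library and Cd34 at most 6. These undetected genes were named after their values were seen.

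**Figure D5:**
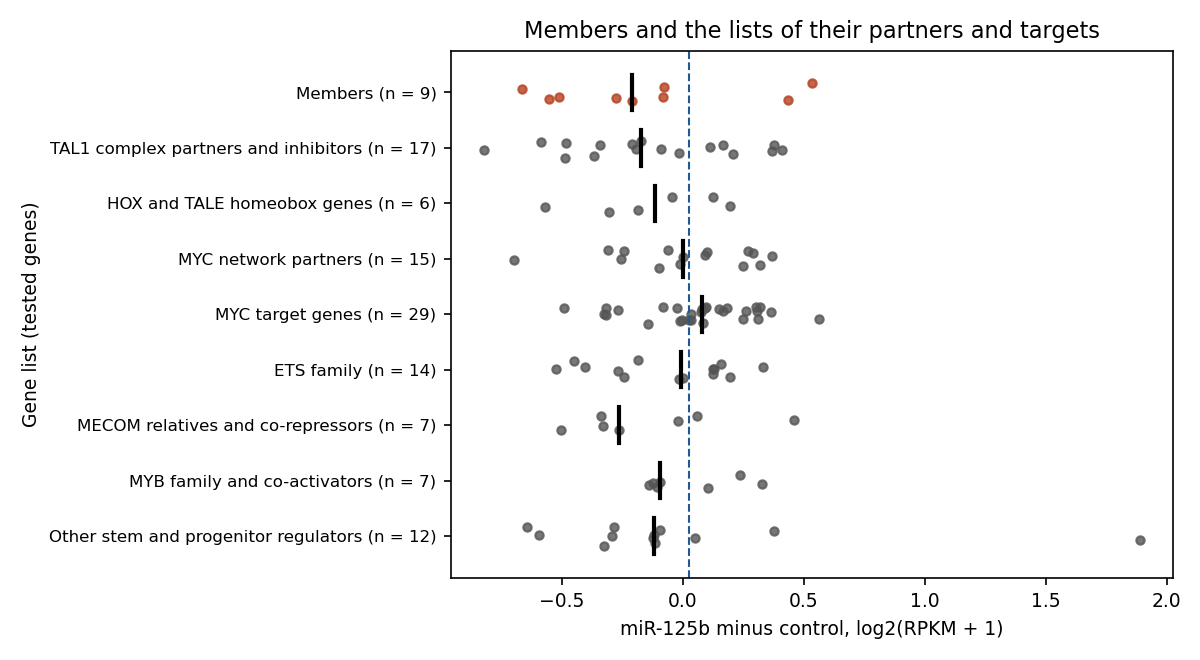
Difference in log2(RPKM + 1), miR-125b minus control, of each tested member (red) and of the tested genes of 8 lists of partners, relatives and targets (grey), with the median of each as a black bar and that of all tested genes (0.024) as a dashed line. The list medians lie between -0.26 and 0.081.

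Profiles over the 4 libraries were compared by the Euclidean distance between log2(RPKM + 1) values centred on each gene's mean, as a description over 4 libraries that share depth and composition. Lyl1 and Etv6 were nearest to each other, at a distance of 0.153, both highest in control replicate 2 and lowest in miR-125b replicate 2. Mecom and Meis1 were nearest to each other at 0.413, both highest in miR-125b replicate 2. Myb and Myc were nearest to each other at 0.258, and Myc was also nearest to Tal1 at 0.275. Lmo2 (nearest to Lyl1, at 0.632) and Gata2 (nearest to Myb, at 0.594) lay farthest from any other member.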

How the data were processed

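Poly(A) RNA of 32Dclone3 cells was sequenced in 2 control and 2 miR-125b libraries, grouped by their titles. For each library the authors deposited a table of 26982 RefSeq transcripts with an RPKM value for each. Per the submitters' processing notes, positions are in mm9. What aligned and counted the reads, and whether by strand, was not given in the sources used here. Overlapping genes therefore cannot be told apart. Multiplying RPKM by exon length gave whole reads, within 0.001 reads, for 100.0% of rows, so reads are given as well.

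One row stood for each gene, the longest. RPKM values were tested with limma 3.58.1 in R 4.3.3 (moderated linear model, trended prior, 2-sided, group as the only term) on log2(RPKM + 1), over 10309 genes with at least 1 RPKM in at least 2 libraries. Fold changes on this scale understate changes of low genes. P-values were adjusted after Benjamini and Hochberg, with a threshold of 0.05. With 2 libraries against 2, an exact permutation test cannot go below p = 0.333, so none is given for single genes. The p-values cover only the variation among these infected cultures. Counting error alone is addressed only for rows without reads, by the floor of 3 reads.

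The members and gene lists were chosen with earlier results of these data known. Named were all members, at most 3 tested genes of each list with the smallest p, some list markers that moved with the groups or stood at 0, and for each member the nearest other member. A few listed genes are not reported here. Of the others, Spi1 was found under its table name Sfpi1. 3′ UTRs came from GENCODE M21 (99.4% of genes joined by name or RefSeq identifier), and miRNA and promoter sequences from RefSeq (GRCm38.p6). No coordinates were moved between builds. Alternatives changed the pseudocount, the filter on low values, the scaling, the test, the row kept, the GC content, the replicate block and the libraries used.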

Additional observations from a re-analysis of the deposited data

How the results depend on the processing

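No member passed the adjusted threshold under any of the 14 alternatives run. The 2 members lower at an unadjusted limma p under 0.05 became 1 with a minimum of 5 RPKM and with upper-quartile scaling. They also became 1 with the GC trend removed and with the replicate block. Meis1 was not tested at the 5 RPKM minimum. The count of higher members, 0, became 1 (Mecom) with upper-quartile scaling, with voom and with the replicate block. Same-numbered libraries did not deviate together (r = 0.0207 across 10309 genes). Such a correlation cannot show that the libraries were unpaired, as control replicate 2 also differed from its group by GC content. With the replicate block 12 genes were called over all genes and 0 of the members. Genes called over all genes, 0 as reported, numbered 0 to 91 with 1 library left out: 0 without control replicate 1, 1 without control replicate 2, and in the miR-125b group 91 without replicate 1 and 25 without replicate 2, in fits where the lone library is assumed to vary like the other group. The cause was not tested.

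Among the members and the list genes named by their p, whose values were recomputed, the sign turned for 6 genes when 1 library was left out. Without control replicate 2, Lmo2 turned to 0.077 (range over the libraries left out -1.18 to 0.077), Mybl2 to -0.11 (-0.11 to 0.58) and Pknox1 to -0.050 (-0.050 to 0.44). Without control replicate 1, Tal1 turned to 0.045 (-0.20 to 0.045). Gata2 turned to 0.24 (-0.66 to 0.24) when miR-125b replicate 1 was left out, and Meis1 to -0.028 (-0.028 to 0.90) when miR-125b replicate 2 was. Etv6 had an unadjusted limma p under 0.05 in 13 of 14 alternatives, Lyl1 in 7 and Mecom in 3. Of 208 alternative values of list medians, 14 moved by more than the spread between replicates. Medians of the HOX and TALE, MYC network, MYC target, ETS and MYB lists lay on both sides of 0 over the alternatives. The same held for every cell type list except that of mast cells and basophils. Depth limits Hoxa9, the upstream Mecom row and Kit, for which 3 reads or fewer cannot be told from 0, and hardly limits the tested members.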
